A study of Sus scrofa with 6 samples.

Results

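Genes of the cell division cycle were examined in neonatal porcine Sertoli cells (NPSC), the somatic nurse cells of the seminiferous tubule, before and after contact with human serum. The list held 45 genes of S phase and of G2 and mitosis, and its members were found by pairing each pig gene symbol with an identifier of the count files. Of the 45 genes, 30 had an identifier and 28 had at least 10 counts summed over the 6 libraries, out of 25149 genes in the files and 17512 genes that were tested.

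Bulk RNA sequencing compared 3 libraries of baseline NPSC with 3 libraries of complement NPSC. The cells were wild type and came from the testes of Duroc-Landrace pigs 3 to 5 days old. They were isolated from 3 litters, with the testes of 4 male pigs collected per litter, and the sample labels do not tie a library to a litter. Both groups were kept in DMEM with 10% fetal bovine serum. Baseline NPSC received more DMEM, whereas complement NPSC were held for 90 min in equal parts of that medium and of pooled human serum with its complement preserved. No plate received serum without active complement, so an effect of complement and one of the other contents of serum cannot be told apart. Since the labels do not name separate animals, the p-values measure the spread between these libraries, which may be technical.

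A cell divides by a fixed order of steps. E-type cyclins and E2F factors open S phase, the MCM helicase and CDC45 unwind the DNA that is copied, ribonucleotide reductase makes its building blocks, and B-type cyclins with CDK1 then drive mitosis, in which kinesins and the anaphase-promoting complex separate the chromosomes. Sertoli cells multiply before puberty and stop dividing when they mature, so a neonatal isolate is a tissue in which these genes are normally in use. Human serum also holds mitogens, and in resting cells the E2F-driven genes answer a mitogen hours later than the immediate early genes do.

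Counts on genes ranged from 3641518 to 8371923 per library, and every complement NPSC library had fewer than every baseline NPSC library. The 28 genes held 4611 to 11744 counts per library, and the lowest single value was 37 counts. Levels are given as CPM, counts per library scaled to a common size with trimmed means (TMM), and differences as the log2 fold change (LFC) of complement over baseline NPSC with its standard error (SE). Olfactory receptor genes, which belong to the nasal epithelium, were counted at 1.18 to 2.15 CPM per kb of exon, by library totals, in baseline NPSC and at 4.01, 4.43 and 1.51 CPM per kb in complement NPSC replicates 1, 2 and 3. This density times the exon length of a gene gives an expected background, which is set beside the values below. Of the 9 Sertoli cell markers with an identifier, all were counted, SOX9 and CLDN11 among them.

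No gene of the 28 passed the test in either direction. Over all tested genes, edgeR's quasi-likelihood test with Benjamini-Hochberg adjustment (adjusted p under 0.05) called 0.0914% higher and 0.0114% lower in complement NPSC, so 0 of 28 lies at the background. Even without adjustment 0 of the 28 genes had p under 0.05 in edgeR, against 15.2% of all tested genes. The Wald test of DESeq2, which called 0.292% of its genes higher and 0.133% lower, called 0 of the 28. It gave 1 of them, MCM2, an unadjusted p under 0.05. In edgeR this number was 2 with library totals, 3 with a term for the replicate number and 8 without complement NPSC replicate 3. The share of all genes at that unadjusted p was not counted in those fits. The LFC ran from -0.44 for MCM2 to 0.38 for CCNE1, with adjusted p values of 0.331 to 0.988 in edgeR. Each of the 28 intervals at 95% confidence held 0, and together they reached from -0.92 to 0.99, so these libraries leave room for changes of up to about that size. In bulk RNA, fewer dividing cells and less of each transcript per dividing cell cannot be told apart.

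The middle of the genes lay slightly below 0. Their median LFC was -0.15, against 0.02 over all tested genes and -0.07 over the 10886 tested genes in the same range of mean CPM. An LFC below 0 was found for 18 of the 28 genes and one above 0 for the other 10, while 48.5% of all tested genes lay below 0. The number below 0 was 15 with upper-quartile scaling and 13 with library totals. The groups did not overlap for 2 genes, CCNE1 and CDC45, both higher in complement NPSC, and for 0 genes in the lower direction, whereas 8.95% of all tested genes were separated upward and 8.14% downward. The levels of the 28 genes in each library are plotted by role.

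**Figure D1:**
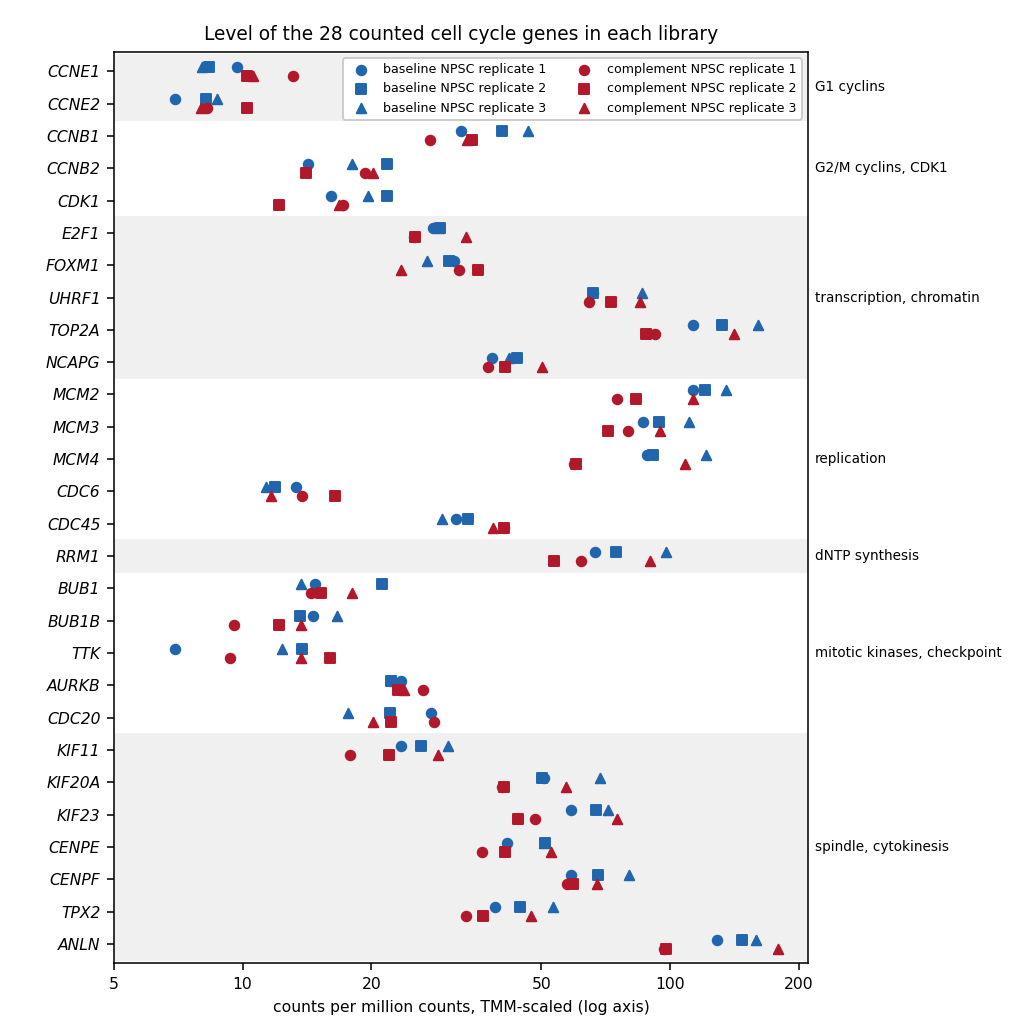
The level of each of the 28 genes (CPM after TMM scaling, log axis) in the 3 baseline NPSC libraries (blue) and the 3 complement NPSC libraries (red), with 1 point per library and genes grouped by role. The red circle and square (complement NPSC replicates 1 and 2) sit to the left of the blue points for most replication and spindle genes, and the red triangle (replicate 3) sits among the blue points for those genes, or to their right for ANLN, KIF23 and CENPE; only CCNE1 and CDC45 have all red points to the right.

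**Figure D2:**
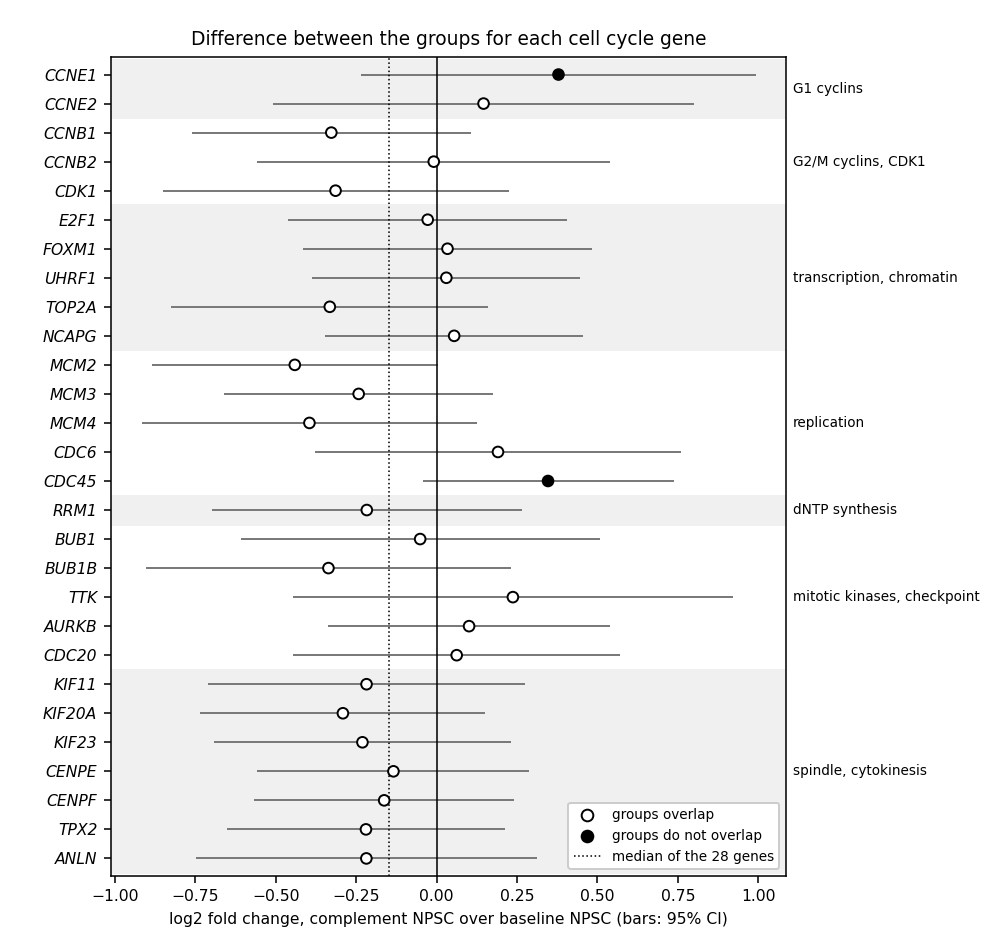
The LFC of complement over baseline NPSC for each of the 28 genes (points) with its 95% confidence interval from edgeR (bars); filled points are genes whose groups do not overlap and the dotted line is the median, -0.15. Each bar crosses 0.

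The cyclin genes that open S phase were low. CCNE1 and CCNE2 encode the E-type cyclins, which activate CDK2 at the start of S phase. CCNE1 (ENSSSCG00000002855, chromosome 6, 35242727 to 35254034 in the unnamed build of the files) was counted at 9.71, 8.36 and 8.04 CPM in baseline NPSC and at 13.1, 10.3 and 10.6 CPM in complement NPSC. All complement values were above all baseline values, yet the LFC of 0.38 (SE 0.29) had an adjusted p of 0.485 in edgeR. The expected background was 26.7% of all CCNE1 counts and reached 46.3% in complement NPSC replicate 2. With it subtracted the groups overlapped, since that library was at 7.64 CPM and baseline NPSC replicate 1 at 7.74 CPM. CCNE2 was counted at 6.96, 8.20 and 8.70 CPM in baseline NPSC and at 8.23, 10.3 and 7.99 CPM in complement NPSC, and its groups overlapped (LFC 0.15, SE 0.31, adjusted p 0.799 in edgeR). Its expected background came to 67.9% of its counts over the 6 libraries and to 114% and 100.1% in complement NPSC replicates 1 and 2, so there the counts give no level above background. CCNE2 also shares 1512 bp of exon with INTS8 on the other strand, and whether the counting used strand is not given in the sources used here.

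The cyclins and the kinase of G2 and mitosis did not differ beyond the spread. CCNB1, a B-type cyclin that partners CDK1, was counted at 32.5, 40.4 and 46.6 CPM in baseline NPSC and at 27.4, 34.4 and 33.5 CPM in complement NPSC. The ranges overlapped and the LFC was -0.33 (SE 0.20, adjusted p 0.414 in edgeR). CCNB2, the second B-type cyclin, was counted at 14.2, 21.8 and 18.1 CPM in baseline NPSC and at 19.4, 14.1 and 20.1 CPM in complement NPSC. Of the 28 genes it had the LFC nearest to 0, -0.01 (SE 0.26, adjusted p 0.988 in edgeR), with an interval from -0.56 to 0.54. CDK1, the kinase itself, had an LFC of -0.31 and overlapping groups.

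Among the transcription and chromatin factors of dividing cells, TOP2A was the most abundant. It encodes the topoisomerase that untangles replicated chromosomes, and it was counted at 113, 132 and 160.5 CPM in baseline NPSC and at 92.4, 88.0 and 141 CPM in complement NPSC. Complement NPSC replicates 1 and 2 were below every baseline library and replicate 3 was among them, and the LFC was -0.33 (SE 0.23, adjusted p 0.456 in edgeR). UHRF1, which keeps DNA methylation through replication, was counted at 66.1, 66.1 and 85.9 CPM in baseline NPSC and at 64.8, 72.8 and 85.1 CPM in complement NPSC. These are nearly the same values, with an LFC of 0.03 (SE 0.20) and an interval from -0.39 to 0.45. The remaining members, the S phase factor E2F1, the mitotic transcription factor FOXM1 and the condensin subunit NCAPG, had LFCs of -0.03, 0.03 and 0.05, and none was separated between the groups.

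The replication genes held the lowest LFC of the list, that of MCM2, and the second highest, that of CDC45. MCM2, MCM3 and MCM4 encode subunits of the MCM helicase, which is loaded on origins in G1. MCM2 (ENSSSCG00000011624, chromosome 13, 80148532 to 80168594) was counted at 113, 121 and 135 CPM in baseline NPSC and at 75.0, 83.3 and 113 CPM in complement NPSC, which gave the lowest LFC of the 28, -0.44 (SE 0.21, adjusted p 0.331 in edgeR). MCM4 (ENSSSCG00000006273, chromosome 4, 87134012 to 87185073) was counted at 88.1, 91.3 and 122 CPM in baseline NPSC and at 59.6, 60.1 and 109 CPM in complement NPSC, with an LFC of -0.40 (SE 0.25, adjusted p 0.414 in edgeR). In both genes, complement NPSC replicates 1 and 2 lay close together below the baseline libraries, while replicate 3 lay near or within them.

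MCM3 had the same arrangement, with 86.5, 94.1 and 111 CPM in baseline NPSC against 79.7, 71.6 and 94.8 CPM in complement NPSC and an LFC of -0.24 (SE 0.20, adjusted p 0.508 in edgeR). Summed over these 3 subunits, the level was 288, 306 and 367 CPM in baseline NPSC and 214, 215 and 317 CPM in complement NPSC. The expected background was a small part of this sum, 3.61% to 7.49% at baseline and 16.6%, 18.2% and 5.39% after serum.

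CDC45, which joins the MCM ring to form the active helicase, lay on the other side of 0 from its MCM partners. CDC45 (ENSSSCG00000010122, chromosome 14, 54750140 to 54775656) was counted at 31.6, 33.7 and 29.3 CPM in baseline NPSC and at 41.0, 40.8 and 38.6 CPM in complement NPSC. All 3 complement libraries were above all 3 baseline libraries and lay close together. The LFC was 0.35 (SE 0.18) with an interval from -0.04 to 0.74, and the adjusted p was 0.358 in edgeR. The expected background was 18.4% of its counts. CDC6, which loads the helicase, had an LFC of 0.19 and overlapping groups. RRM1, the large subunit of ribonucleotide reductase, was the only counted gene of nucleotide synthesis. It was counted at 66.7, 74.9 and 97.8 CPM in baseline NPSC and at 61.9, 53.7 and 90.0 CPM in complement NPSC (LFC -0.22, SE 0.23, adjusted p 0.597 in edgeR).

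The mitotic kinases and checkpoint genes were low by CPM and had similar sums in both groups. Per kb of exon, AURKB ranked 8 of the 28 genes in baseline NPSC. The 5 counted members of this list summed to 83.0 to 93.0 CPM in baseline NPSC and to 87.9 to 89.5 CPM in complement NPSC. AURKB, the catalytic subunit of the chromosomal passenger complex, was counted at 23.5, 22.3 and 22.7 CPM in baseline NPSC and at 26.5, 23.1 and 23.8 CPM in complement NPSC (LFC 0.10, SE 0.21, adjusted p 0.794 in edgeR). CDC20, the activator of the anaphase-promoting complex, was counted at 27.5, 22.1 and 17.7 CPM in baseline NPSC and at 28.0, 22.2 and 20.1 CPM in complement NPSC (LFC 0.06, SE 0.24, adjusted p 0.896 in edgeR). The expected background came to 49.9% of the CDC20 counts, and 3179 bp of its exons lie opposite a gene without a symbol.

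BUB1B and TTK are kinase genes of the spindle checkpoint, and they lay at opposite ends of this group. BUB1B was counted at 14.6, 13.6 and 16.6 CPM in baseline NPSC and at 9.57, 12.2 and 13.7 CPM in complement NPSC (LFC -0.34, SE 0.27, adjusted p 0.50 in edgeR). TTK was counted at 6.96, 13.8 and 12.4 CPM in baseline NPSC and at 9.35, 16.0 and 13.7 CPM in complement NPSC (LFC 0.24, SE 0.32, adjusted p 0.684 in edgeR). In each gene the groups overlapped, and for TTK the baseline libraries alone spanned more than the difference. The expected background was 18.6% of the BUB1B counts and 37.4% of the TTK counts. With it subtracted their LFCs were -0.44 and 0.08. BUB1 had an LFC of -0.05.

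All 7 counted genes of the spindle, kinetochore and cytokinesis had an LFC below 0, from -0.29 for the kinesin KIF20A to -0.13 for the kinetochore motor CENPE. None of them was called and in none were the groups separated, with adjusted p values of 0.463 to 0.709 in edgeR. ANLN (ENSSSCG00000016658, chromosome 18, 41294200 to 41348331), the scaffold of the cytokinetic ring, was the most abundant of the 28 by CPM. It was counted at 129, 147 and 159 CPM in baseline NPSC and at 97.0, 97.8 and 179 CPM in complement NPSC. The complement group held both the lowest values and the highest one, and the LFC was -0.22 (SE 0.25, adjusted p 0.627 in edgeR). CENPF, a kinetochore protein that accumulates toward mitosis, was counted at 58.6, 67.8 and 80.0 CPM in baseline NPSC and at 57.4, 59.4 and 67.4 CPM in complement NPSC (LFC -0.16, SE 0.19, adjusted p 0.634 in edgeR). The kinesins KIF11 and KIF23 and the spindle assembly factor TPX2 had LFCs of -0.22, -0.23 and -0.22. The expected background was 34.5% of the CENPE counts and 37.5% of the KIF11 counts. Under the 17 alternative settings described below, the LFC ran from -0.59 to 0.17 for CENPE and from -0.91 to 0.11 for KIF11.

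Per kb of exon, the genes covered a range from the MCM helicase down to the cyclin gene CCNE2. In baseline NPSC the level per length was 35.3 ± 3.20 CPM per kb for MCM2, 34.8 ± 6.40 for MCM4, 31.4 ± 3.31 for ANLN and 25.6 ± 3.25 for MCM3 (SD, n = 3). At the other end, CDC6 was at 5.07 ± 0.43, CDC20 at 4.19 ± 0.92 and CCNE2 at 2.98 ± 0.34 CPM per kb (SD, n = 3). Of the 27 pairs of neighbours in this order, 25 overlapped over the baseline libraries and 2 did not, BUB1B above CDC45 and CDC20 above CCNE2. In complement NPSC none of the 27 pairs was separated, and ANLN, MCM4 and MCM2 were the highest at 26.9 ± 10.2, 26.4 ± 9.73 and 26.0 ± 5.77 CPM per kb (SD, n = 3). At the low end, expected background made up 67.0% and 93.1% of the CDC20 counts in complement NPSC replicates 1 and 2. The levels per kb still hold this background, which by library totals was 1.18 to 2.15 CPM per kb in baseline NPSC. Of the exons of CDC20 and CCNE2, 3179 and 1512 bp lie opposite another gene, so these lowest levels are uncertain.

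The picture depended on single libraries of both groups. Summed over the 28 genes, the level was 1244, 1376 and 1547 CPM in baseline NPSC and 1087, 1100 and 1476 CPM in complement NPSC. The means were 1389 ± 152 and 1221 ± 221 CPM (SD, n = 3), a difference of -12.1% that is smaller than the 35.8% by which the highest complement library exceeded the lowest. The difference was -1.60% with library totals and -5.37% with upper-quartile scaling, and -7.14% without complement NPSC replicate 1 and -7.73% without baseline NPSC replicate 3. Complement NPSC replicate 3 was the highest of its group in 18 of the 28 genes, whereas it was the highest in 40.8% of all tested genes. Against the mean of baseline NPSC, complement NPSC replicates 1 and 2 were each lower in 20 genes and replicate 3 in 9. The baseline group was uneven too, with replicate 1 the lowest in 18 genes and replicate 3 the highest in 15. Within a group, the median coefficient of variation of the 28 genes was 12.7% in baseline NPSC and 17.9% in complement NPSC, against 15.5% and 19.1% over the tested genes in the same CPM range.

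**Figure D3:**
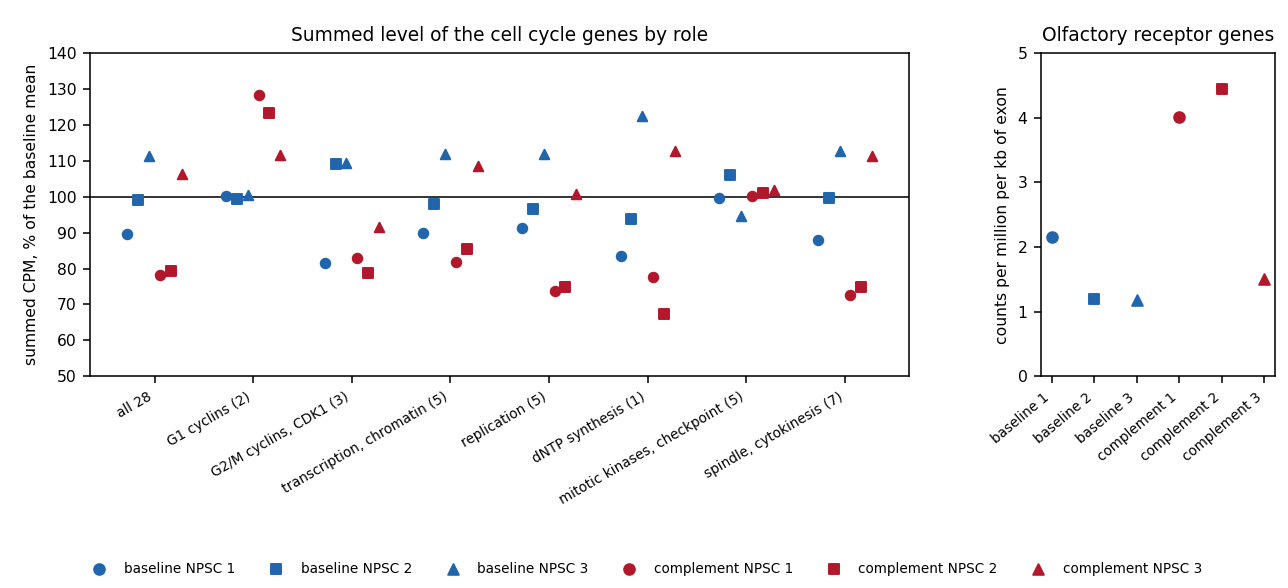
Left, CPM summed over the counted genes of each role in each library, as a percent of the baseline mean (line at 100; number of genes in parentheses; the axis starts at 50). Right, CPM per kb of exon on olfactory receptor genes. Complement NPSC replicates 1 and 2 are low in the summed level of all 28 genes, 1087 and 1100 CPM, and high in olfactory receptor density, 4.01 and 4.43, while replicate 3 is near the baseline libraries in both.

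The 2 complement NPSC libraries with the low sums were also the 2 with the high olfactory receptor density and the fewest counts. The expected background made up a median of 28.0% and 32.6% of the counts of a cell cycle gene in complement NPSC replicates 1 and 2, 11.7% in replicate 3 and 9.08% to 17.1% in baseline NPSC. It exceeded 50% in 7, 8 and 1 of the 28 genes in complement NPSC replicates 1, 2 and 3, and in 2, 0 and 0 of them in baseline NPSC replicates 1, 2 and 3. With that background subtracted, the summed level was 1133, 1196 and 1386 CPM in baseline NPSC and 986, 1017 and 1308 CPM in complement NPSC, a difference of -10.9%, and 20 of the 28 genes had an LFC below 0.

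Without complement NPSC replicate 3, 3 of the 28 genes were called lower by edgeR's quasi-likelihood test and 0 higher, beside 3.80% and 6.26% of the genes tested in that fit. They were MCM2 (LFC -0.67, adjusted p 0.0411), MCM4 (LFC -0.77, adjusted p 0.0394) and ANLN (LFC -0.60, adjusted p 0.0470). The groups were then separated downward in 14 genes and upward in 4, beside 27.1% and 31.4% of all genes tested, and the difference of the summed level became -22.9%. Without complement NPSC replicates 1 and 2, the complement arm was a single library that is assumed to vary like the baseline libraries. In that fit 0 of the 28 genes were called (0.145% of all genes higher, 0.00557% lower), which says nothing about stability, the difference of the summed level was 4.41% and 11 genes had an LFC below 0. With the olfactory receptor density as a covariate, 0 of the 28 were called (0.343% of all genes higher, 0.0171% lower), the median LFC was 0.11 and 7 genes lay below 0. These settings are set side by side in the plot of LFCs by setting. Of the 28 genes, 7 had the same sign of LFC as in the fit of all libraries under all 17 alternative settings: CCNE1, CDC45 and AURKB above 0, and CCNB1, CDK1, MCM2 and BUB1B below 0.

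**Figure D4:**
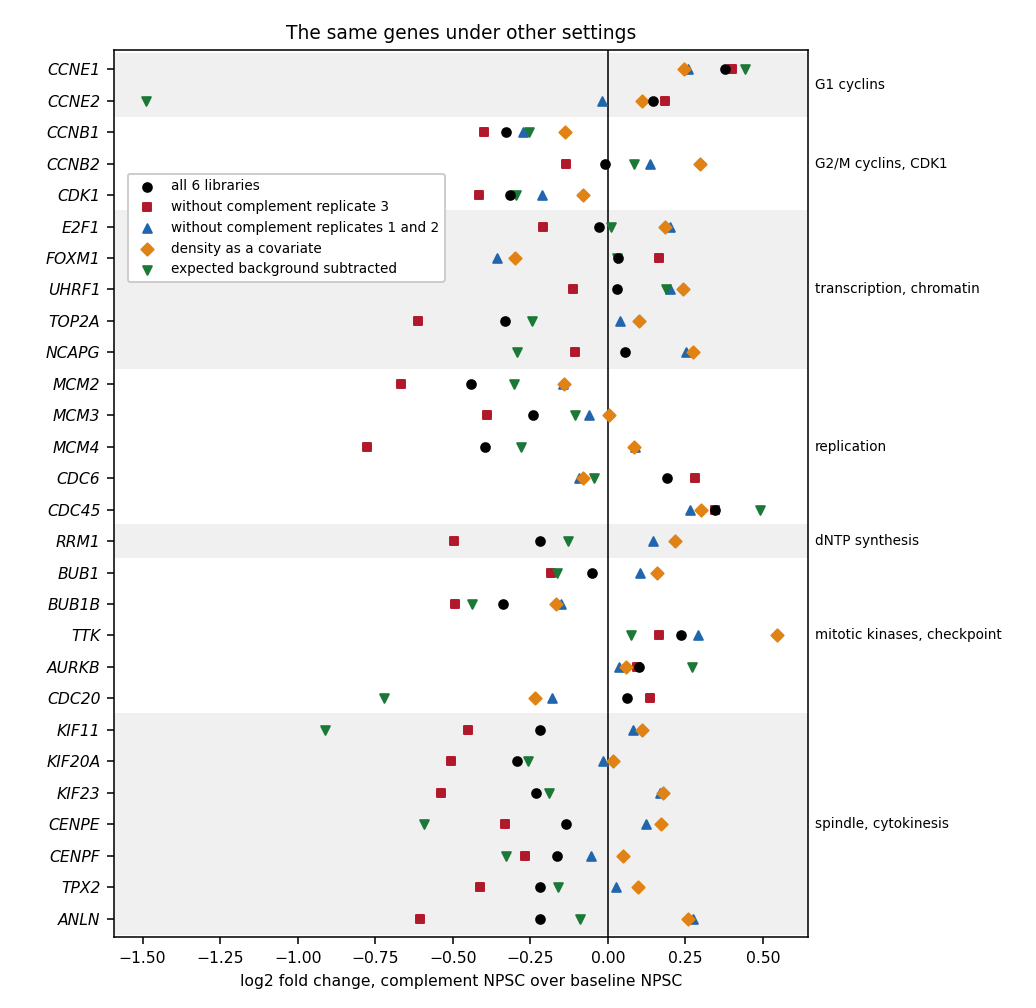
The LFC of each of the 28 genes with all 6 libraries (black), without complement NPSC replicate 3 (red), without complement NPSC replicates 1 and 2 (blue, a complement arm of 1 library), with olfactory receptor density as a covariate (orange) and with the expected background subtracted (green). The red points of the called genes MCM2, MCM4 and ANLN lie at -0.67, -0.77 and -0.60, with TOP2A, which was not called, at -0.61, while blue and orange points are mostly near or right of 0.

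Markers of several testicular cell types differed with the group or the library, and their part in the values above was not tested. The 9 counted Sertoli cell markers summed to 1453 to 1766 CPM in baseline NPSC and to 966 to 1127 CPM in complement NPSC, and 5 of the 9 were lower without overlap, beside 8.14% of all tested genes. The LFC was below 0 for 7 of the 9 and above 0 for DHH and TF, up to 0.94. The 3 counted Leydig cell markers, CYP17A1, INSL3 and LHCGR, summed to 936 to 1139 CPM in baseline NPSC and to 713 to 760 CPM in complement NPSC, all 3 lower without overlap. None of these was called by edgeR. Peritubular myoid cell markers, 4 counted with ACTA2 and TAGLN the highest, summed to 2458 to 3722 CPM in baseline NPSC and to 1945, 1912 and 3569 CPM in complement NPSC. The 3 counted endothelial markers summed to 367 to 556 CPM in baseline NPSC and to 337, 256 and 608 CPM in complement NPSC. In both of these lists complement NPSC replicate 3 was the highest of its group, as it was in the cell cycle sum.

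The 4 counted macrophage markers summed to 65.2 to 93.6 CPM in baseline NPSC and to 48.1 to 77.8 CPM in complement NPSC. The expected background was 14.6% to 31.1% of the macrophage marker counts in baseline NPSC. It was 48.9%, 52.0% and 36.6% in complement NPSC replicates 1, 2 and 3. The 6 counted germ cell markers summed to 242 to 381 CPM in baseline NPSC and to 186, 248 and 325 CPM in complement NPSC. Replicate 3 was again the highest complement library. Most of the germ cell sum was KIT, which other testicular cells also use, while the germ cell gene DDX4 averaged 3.86 and 2.88 CPM. The isolate therefore held RNA with the marks of several cell types, and the libraries do not show which cells carried the cell cycle transcripts. The Leydig marker CYP11A1 and the myoid marker MYH11 were listed at 0 in all libraries.

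A count of 0 gave no level here. MCM5, a further helicase subunit, and PLK1, a kinase of mitotic entry, were listed at 0 in all 6 libraries. Both lie on unplaced scaffolds, where none of the 2451 genes of the files had a count, whereas 21859 of the 22698 genes on chromosomes had at least 1. The other 15 members were not paired with an identifier by the tables of names used here, and they were not analysed: CCND1, CCND2, CCND3, CCNA2, MKI67, MCM6, MCM7, PCNA, RRM2, TYMS, AURKA, BIRC5, NUSAP1, PRC1 and ECT2. No D-type cyclin is therefore among the measured genes.

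The rest of the cell cycle machinery was read from 8 further lists with 140 genes, of which 99 had an identifier and 91 were tested. Genes that the tables of names paired with no identifier of the count files, among them 7 of the 15 growth arrest genes (BTG1, BTG2, TOB1, TOB2, GADD45A, GADD45G and GAS1), were not analysed here. At least BTG2 and GADD45G are counted in the files under identifiers that these tables pair with no symbol, so the counts that follow do not stand for the whole lists. In edgeR 0 of the 91 genes were called (0.0914% of all tested genes higher, 0.0114% lower), 5 had an unadjusted p under 0.05 (15.2% of all tested genes), and the median LFC was -0.15, the same as for the 28 genes. The groups did not overlap in 4 genes upward and in 8 downward, beside the 8.95% and 8.14% of all tested genes. The 8 genes with an identifier that were listed at 0, among them the CDK inhibitor gene CDKN1A and the kinase gene CDK4, all lie on unplaced scaffolds.

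The 4 genes of these lists that were separated upward were E2F7, PLK3, GADD45B and ESPL1. E2F7, an atypical E2F that represses S phase genes, was counted at 27.4, 27.4 and 26.5 CPM in baseline NPSC and at 41.8, 41.7 and 41.5 CPM in complement NPSC. The groups were far apart compared with the spread within them, but the LFC of 0.62 (SE 0.18, unadjusted p 0.00376) had an adjusted p of 0.264 in edgeR. The expected background was 36.1% of the E2F7 counts, from 22.8% in complement NPSC replicate 3 to 52.1% in replicate 2, and with it subtracted the LFC was 0.71. PLK3, a stress-responsive polo-like kinase, was counted at 49.4, 46.1 and 36.2 CPM in baseline NPSC and at 68.5, 63.2 and 70.0 CPM in complement NPSC (LFC 0.62, SE 0.19, adjusted p 0.267 in edgeR). Of the PLK3 exons, 373 bp lie opposite a gene without a symbol. GADD45B, a growth arrest gene induced by stress and named here after its values were seen, was counted at 74.5, 95.8 and 96.1 CPM in baseline NPSC and at 109, 127 and 177 CPM in complement NPSC (LFC 0.63, SE 0.22, adjusted p 0.272 in edgeR). In each of these 3 genes every complement library was above every baseline library. Under the 17 alternative settings their LFCs stayed above 0, from 0.56 to 0.80 for E2F7, from 0.48 to 0.84 for PLK3 and from 0.38 to 1.02 for GADD45B. The calls depended on the setting. With the olfactory receptor density as a covariate, GADD45B was called (LFC 1.02, adjusted p 0.0166 in edgeR), beside 0.343% of all tested genes called higher. A replicate block, given with the processing alternatives, called all 3, beside 10.7% of all tested genes called higher.

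The lists differed in how their LFCs were spread. Among the other replication genes, 18 of 20 had an LFC below 0 and the median was -0.30, with 0 called and RFC5, a clamp loader subunit named after its values were seen, separated downward. ORC3, a subunit of the origin recognition complex, was counted at 56.2, 87.0 and 76.6 CPM in baseline NPSC and at 48.5, 43.9 and 62.5 CPM in complement NPSC (LFC -0.50, SE 0.21, adjusted p 0.307 in edgeR). With a replicate block ORC3 (LFC -0.49, adjusted p 0.0324 in edgeR) and RFC4 were called lower, beside 3.68% of all tested genes. All 9 ubiquitin ligase genes lay below 0 with a median of -0.23, with 0 called. ANAPC1, the large scaffold of the anaphase-promoting complex, was counted at 152, 172 and 153 CPM in baseline NPSC and at 106, 96.6 and 165 CPM in complement NPSC (LFC -0.37, SE 0.23, adjusted p 0.415 in edgeR). Without complement NPSC replicate 3, RFC5 and ANAPC1 were called lower, beside 3.80% of all genes tested. Their LFCs were then -0.71 and -0.68 (adjusted p 0.0412 and 0.0394 in edgeR).

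The other mitotic genes had 13 of 22 LFCs below 0 and a median of -0.12. ESPL1, the protease that cuts cohesin at anaphase, was counted at 70.2, 67.6 and 60.3 CPM in baseline NPSC and at 90.6, 89.0 and 76.3 CPM in complement NPSC (LFC 0.37, SE 0.18, adjusted p 0.342 in edgeR). All 3 complement values were above the baseline values while most of this list lay below 0.

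In the mitogen-induced list, 5 of 7 LFCs were above 0 and the median was 0.34, but MYCN, a growth-promoting transcription factor, was lower in every complement library. MYCN was counted at 25.7, 30.8 and 26.2 CPM in baseline NPSC and at 20.3, 22.4 and 17.7 CPM in complement NPSC (LFC -0.46, SE 0.21, adjusted p 0.329 in edgeR). CDKN3, a phosphatase gene kept in the list of CDK inhibitors, was counted at 14.5, 22.0 and 17.0 CPM in baseline NPSC and at 12.0, 14.1 and 14.2 CPM in complement NPSC (LFC -0.40, SE 0.26, adjusted p 0.425 in edgeR). The 4 tested CDK inhibitor genes had a median LFC of 0.02. Among the CDKs and checkpoint kinases the median was -0.04. ATR, the kinase that senses stalled forks, was counted at 60.6, 74.8 and 61.1 CPM in baseline NPSC and at 43.6, 47.7 and 62.0 CPM in complement NPSC (LFC -0.35, SE 0.20, adjusted p 0.380 in edgeR). The ATR LFC was -0.77 with the expected background subtracted and -0.09 with the olfactory receptor density as a covariate. The 12 genes of the RB, E2F and DREAM list had a median of -0.04. No median is given for the growth arrest list, of which 8 of the 15 genes were tested.

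**Figure D5:**
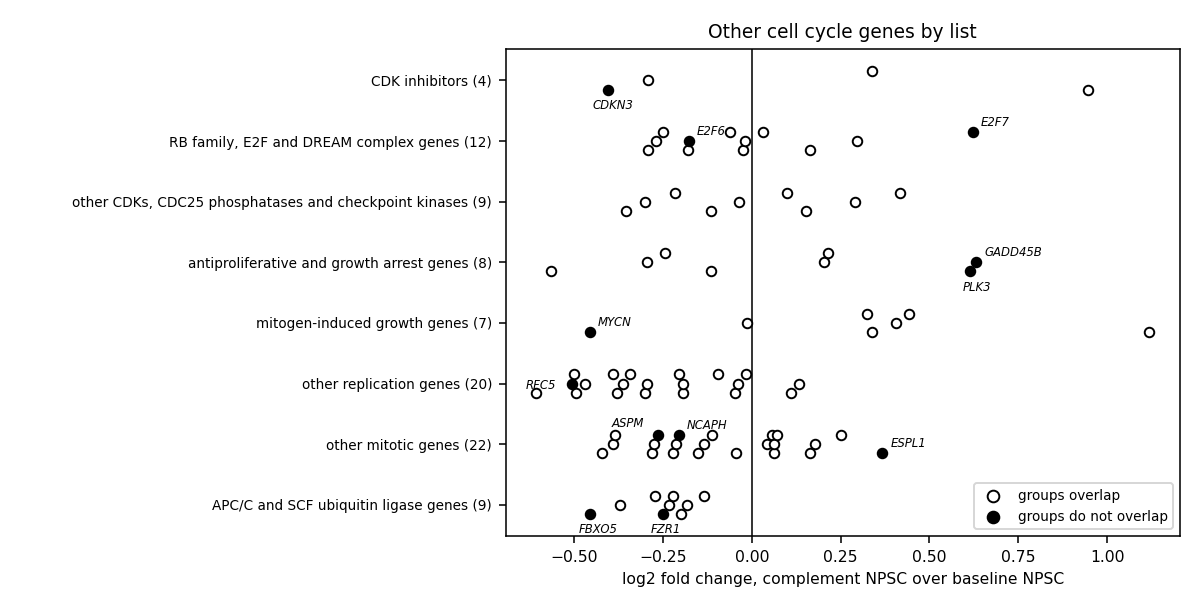
The LFC of complement over baseline NPSC for the 91 further cell cycle genes, 1 point per gene, grouped by list (number of tested genes in parentheses; points are offset vertically for legibility). Filled points with a name are genes whose groups do not overlap: E2F7, GADD45B, PLK3 and ESPL1 upward, and 8 genes downward.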

How the data were processed

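Per the labels' processing notes, reads were trimmed with Trimmomatic 0.36, mapped with STAR 2.5.2b and counted with featureCounts of Subread 1.5.2. The files the authors deposited hold raw read counts for each gene, not normalized, beside exon coordinates and summed exon length. The genome build and the strand setting are not given in the sources used here, so coordinates are those of the files. Symbols were paired with identifiers through tables of pig gene names (11804 of 25149 genes).

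The fit used edgeR 4.0.16 in R 4.3.3 over all 6 libraries: filterByExpr, TMM, estimateDisp, glmQLFit and glmQLFTest with group as the only term, and Benjamini-Hochberg adjustment over 17512 genes. All 28 counted members passed the filter. The expected background used 48 olfactory receptor genes with 45945 bp of exon. Alternatives were other scalings and filters, DESeq2 1.42.0, a replicate block, single libraries left out, and the density as a covariate or subtracted; a fit without complement replicates 1 and 2 was added after seeing the data.

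The members and lists were chosen with earlier results of these data known. Values in all libraries are given for the 2 members with the highest CPM in each role, those separated between groups and the 3 highest and 3 lowest LFCs, and from each further list for the gene with the smallest p. Replicates of a group differed beyond sampling noise, so none was deposited in duplicate. Depth limits genes near the 37 counts seen at the low end. Plots used matplotlib 3.10.9.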

Additional observations from a re-analysis of the deposited data

How the results depend on the processing

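The call of 0 members higher held under all 17 alternatives, and that of 0 lower under all but the fit without complement replicate 3. Leaving out 1 library at a time gave 0 to 3 members called lower, 2 to 4 separated upward and 0 to 14 downward (all genes: 0.0438% to 6.26% called higher, 0% to 3.80% lower, 10.1% to 31.4% separated upward and 9.93% to 27.1% downward), a median LFC of -0.30 to -0.07, and among the other cell cycle genes 0 to 1 called higher and 0 to 3 lower. Each upper count came without complement replicate 3, where AREG (estimated background equal to 103% of its counts) was called higher and SMC4, RFC5 and ANAPC1 lower, while 4 members were separated downward without baseline replicate 1 (20.3% of all genes), and 1 without baseline replicate 2, complement replicate 1 or complement replicate 2 (11.1% to 11.3%). The LFC then ran from -0.17 to 0.13 for CCNB2, -0.11 to 0.15 for UHRF1, -0.017 to 0.44 for TTK and -0.10 to 0.22 for CDC20. Members separated downward numbered 1 with upper-quartile scaling, with library totals and with a minimum of 10 counts per library (6.01%, 5.33% and 8.23% of all genes), 2 with at least 1 count (7.96%), and 1 each way after background subtraction (CDC45 upward, MCM2 downward; 7.46% and 8.30%). With library totals alone the median LFC was 0.019 (all tested genes 0.19), CCNB2 0.16 and CENPF 0.012. With upper-quartile scaling CCNB2 was 0.10 (all tested genes 0.13), with at least 10 counts 0.023, and UHRF1 was -0.012 with at least 1 count and -0.026 in DESeq2.

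With the density covariate the median LFC was 0.11, CCNB2 0.30, TOP2A 0.10, MCM3 0.0048, RRM1 0.22, CDC20 -0.24, ANLN 0.26, CENPF 0.049 and MCM4 0.083, and 1 other gene, GADD45B, was called higher. After subtraction CCNE2 was at -1.49, with 0 counts left in complement replicates 1 and 2, CDC20 at -0.72 and CCNB2 at 0.085. Without complement replicates 1 and 2, a setting chosen after seeing the data that leaves 1 complement library, 7 members were separated upward and 2 downward (21.0% and 23.5% of all genes), the median was 0.060, the summed level differed by 4.41%, and the LFC was -0.019 for CCNE2, 0.14 for CCNB2, 0.039 for TOP2A, 0.15 for RRM1, -0.18 for CDC20, 0.28 for ANLN, 0.086 for MCM4 and 0.033 for ANAPC1. The cause of these shifts was not tested.

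The replicate numbers were not taken as pairs, since the labels do not say that they are. The deviations of libraries with the same number correlated at 0.46, 0.03 and 0.48 across genes. For replicates 1 and 3 the same number gave the highest correlation. Baseline replicate 2 correlated weakly with complement replicates 1, 2 and 3 (-0.14, 0.03 and 0.07), which does not decide the matter. If the numbers do mark pairs, the fit without a block ignores them. With a replicate block 0 members were called, the median LFC was -0.15 and CCNB2 was at 0.00057, while 3 other genes were called higher (E2F7, PLK3 and GADD45B, adjusted p 0.00513, 0.00452 and 0.0107 in edgeR) and 3 lower (ORC3, RFC4, CCNG2), beside 10.7% and 3.68% of all tested genes. MCM2 and MCM4 had adjusted p values of 0.0623 and 0.0694 in edgeR in that fit.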
